A study of Homo sapiens with 15 samples.

Results

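The genes described here encode the integrin subunits and the laminin chains. They are 38 of the 19111 autosomal protein-coding genes of GENCODE release 44, with 18 integrin alpha genes, 8 integrin beta genes and 12 laminin genes. They were chosen by symbol alone (ITGA or ITGB with a number, ITGAV, ITGAL, ITGAM, ITGAX, ITGAE, ITGAD, and LAMA, LAMB or LAMC with a number). ITGA2B was counted as a numbered alpha gene, and genes for binding proteins, whose symbols go on with other letters, were left out.

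An integrin is a receptor made of an alpha and a beta subunit that spans the cell membrane and ties the matrix outside the cell to the actin or keratin filaments inside it. A laminin is a cross-shaped protein of an alpha, a beta and a gamma chain, and laminins form the sheet of the basement membrane on which epithelia rest. In the kidney tubule, integrins that bind laminin hold the cells to this sheet. Other integrins bind collagen, or the RGD motif of fibronectin and related proteins.

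Chromatin accessibility was measured by ATAC-seq, in which the Tn5 transposase cuts open DNA, in RPTEC, human renal proximal tubule epithelial cells immortalised with hTERT and kept under G418. The 15 libraries formed 5 groups of 3, with wild-type cells (WT), a pair of SETD2 knockout lines (KO1, KO2) and a pair of lines given SETD2 back (Rescue1, Rescue2). SETD2 trimethylates lysine 36 of histone H3; each knockout line was 1 clone made with the same CRISPR guide to exon 3, and each rescue line was 1 colony of knockout cells that carried lentiviral full-length SETD2 with a FLAG tag under blasticidin. The labels do not state the parent of the rescue lines; KO2 was taken as the parent because the names of the deposited lists give both rescue lines the clone name of KO2, which was not tested. Libraries of a line are repeats of 1 clone, so p-values measure the spread between libraries, and what belongs to a clone cannot be told apart from what belongs to its SETD2 state; peak lists give no check of the SETD2 edit itself.

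The deposited files were peak lists with no read counts, so the read depth behind each value is unknown. The lists held 191071 to 256644 autosomal peaks that covered 48 to 63.2 Mb, with a mean of 50.2 ± 3.79 Mb in WT and 59.4 ± 6.02 Mb in Rescue2 (SD, n = 3 each). Start sites of 12 of 14 kidney epithelial markers had a peak in all 15 libraries; the exceptions were LRP2, with a peak in 5 libraries, and CUBN, in 2. Of 7 leukocyte markers 5 had no start-site peak in any library, as had 3 of 4 endothelial markers, whereas 3 of 4 fibroblast markers (COL1A1, DCN and THY1) had one in all 15. The remaining leukocyte markers were CD14, with one in all 15 libraries, and LYZ, in 2. CDH5, the remaining endothelial marker, had one in 7 libraries, among them 3 of Rescue1 and 3 of Rescue2. LUM, the remaining fibroblast marker, had one in 12. The value used for each gene was the number of bases under called peaks in the gene body plus 10 kb on each side, and a base outside a peak is below the calling threshold, not closed.

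All 38 genes carried peaks in their windows. Their median was 4152 bases under peaks over the 15 libraries, against 1995 for all autosomal protein-coding genes, and per kb of window the medians were 42.8 and 34.7 bases. Per kb of window, the highest levels were those of ITGA3, an alpha subunit of the main epithelial laminin receptor (86.2 bases), LAMB3, the beta chain of laminin-332 (82.8 bases), and ITGA10, a collagen receptor subunit (72.2 bases). The lowest were those of ITGA8, a subunit of the receptor for nephronectin (3.49 bases), LAMA2, the alpha chain of muscle laminin (9.67 bases), and LAMA1, the alpha chain of early embryonic laminin (14.8 bases). ITGA9 (14.9 bases), ITGAM (15.3 bases) and ITGA4 (16.2 bases) came next. Windows of ITGAD and ITGAX shared 9665 bp, so their values were not separate, and many windows held parts of other protein-coding genes.

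Most members had a start-site peak in every library. A peak within 500 bp of an annotated start of a coding transcript was found in all 15 libraries for 29 of 38 members (76.3%), against 70.8% of 18772 genes, and ITGAM, an alpha subunit of myeloid cells, was the 1 member with no such peak in any library. The 8 members in between were ITGA8, ITGB6, ITGAD, ITGAE, ITGAL, LAMA1, LAMB4 and LAMC3. The start of ITGA8 had a peak in 3 of 3 KO1 libraries and in none of the other 12. The start of ITGB6, the beta subunit that pairs with alpha V in epithelia, had one in 3 WT, 3 KO1 and 1 KO2 library and in no rescue library. Ranked by -log10 p within its own list, where a percentile of 100 is the strongest peak, the ITGB6 start peaks lay between the percentiles 6.0 and 35.7. The ITGA8 start had 2 neighbouring regions, with peaks between 6.9 and 32.5 (chr10:15719539-15719766) and between 25.4 and 55.2 (chr10:15719914-15720135). No test was run on start-site peaks.

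**Figure D1:**
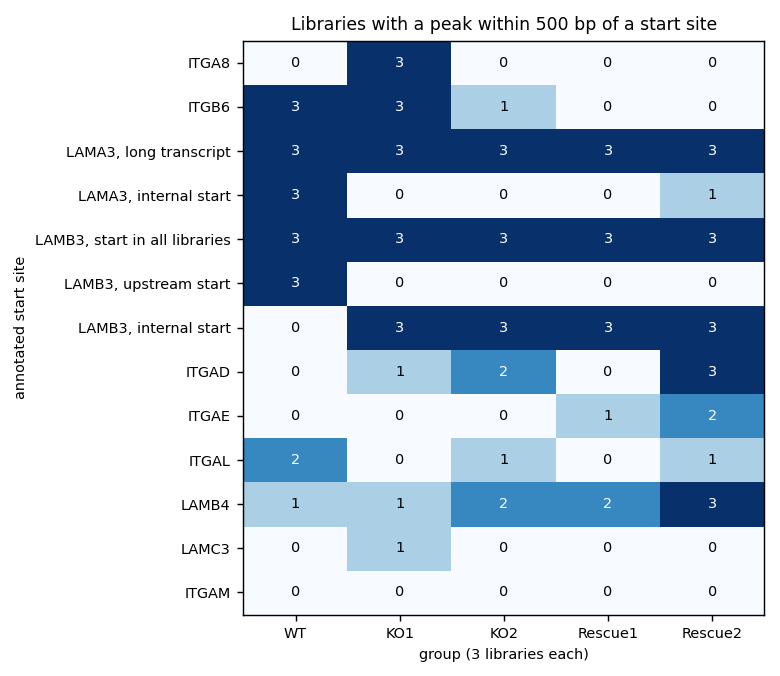
Number of libraries, of 3 in each group, with a peak within 500 bp of an annotated start site, for members without a peak in every library and for the separate starts of LAMA3 and LAMB3 (LAMA1, with a peak in 14 libraries, is not drawn). The upstream start of LAMB3 and the internal start of LAMA3 had a peak in all 3 WT libraries and in 0 of 6 KO libraries, and the internal start of LAMB3 had the opposite pattern.

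LAMA3 and LAMB3, which encode chains of laminin-332, the laminin that anchors epithelial cells through integrin α6β4, kept start-site peaks in every library at some of their starts and differed at others. These starts were singled out after their values had been seen. LAMA3 has a long form that starts at chr18:23689453 (hg38, plus strand; transcript LAMA3-202, spanning 265.6 kb), where all 15 libraries had a peak, and a short form that starts inside the gene at chr18:23873020 (LAMA3-201, spanning 82.0 kb). The short form's start lay in a region (chr18:23872678-23873176) with a peak in 3 of 3 WT libraries, in 0 of 6 KO libraries, in 0 of 3 Rescue1 libraries and in 1 of 3 Rescue2 libraries. In WT these were peaks of middle rank, at the percentiles 51.5, 50.2 and 62.5 of their lists, with a -log10 q of 11.8, 10.7 and 15.4 as the authors' caller gave it, while the 1 peak in Rescue2 (replicate 1) was at the percentile 15.7 with a -log10 q of 4.04. For LAMB3 on the minus strand, the start of its longest transcript (LAMB3-201, chr1:209652425) had a peak in 3 of 3 WT libraries and in none of the other 12, at the percentiles 38.1, 40.3 and 34.5, although another start nearby, at chr1:209651394, had one in all 15. An internal start of LAMB3 (LAMB3-205, chr1:209618798, spanning 2.2 kb) had no peak in WT and a peak in all 12 KO and rescue libraries, with a median percentile of 80.9. Among the members, 2 start-site regions had a peak in all WT and no KO libraries, 1 had the reverse, and none of the 3 had the WT pattern in both rescue clones. Counted by peaks within 500 bp in place of regions, the LAMB1 start at chr7:108002140 also had none in WT and one in all 6 KO libraries. It had one in 1 Rescue1 and 1 Rescue2 library. The same counts over the starts of all genes are not given here.

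The 250 bases before the LAMA3, LAMB3, ITGA8 and ITGB6 starts named below are shown because peaks at these starts differed between groups. The peaks of LAMA3 and LAMB3 and that of ITGA8 at chr10:15719914-15720135 overlap the stretch shown, whereas the other ITGA8 start region and the ITGB6 start peaks (chr2:160199785-160200128) lie on the transcribed side of the start, outside it. Those of LAMA3 (hg38, plus strand, chr18:23872770-23873019) and LAMB3 (hg38, minus strand, chr1:209652426-209652675) come from the genome before the GENCODE starts, and those of ITGA8 (minus strand, chr10:15719923-15720172) and ITGB6 (minus strand, chr2:160200273-160200522) are RefSeq promoters on GRCh38.p14. Capitals mark matches to any of 7 motifs searched on both strands: AP-1 (TGANTCA), TEAD (GGAATG), an E-box (CACCTG), the POU octamer (ATGCAAAT), RUNX (TGTGGT), the palindromic HNF1 motif, which matched nowhere in the members' stretches, and the GC box (GGGCGG).
LAMA3 internal start: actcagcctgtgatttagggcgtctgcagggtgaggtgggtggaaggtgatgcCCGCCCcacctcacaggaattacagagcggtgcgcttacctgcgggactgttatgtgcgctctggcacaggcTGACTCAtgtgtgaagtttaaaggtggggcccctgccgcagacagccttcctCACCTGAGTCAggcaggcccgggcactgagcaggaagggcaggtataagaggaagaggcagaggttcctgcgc
LAMB3 upstream start: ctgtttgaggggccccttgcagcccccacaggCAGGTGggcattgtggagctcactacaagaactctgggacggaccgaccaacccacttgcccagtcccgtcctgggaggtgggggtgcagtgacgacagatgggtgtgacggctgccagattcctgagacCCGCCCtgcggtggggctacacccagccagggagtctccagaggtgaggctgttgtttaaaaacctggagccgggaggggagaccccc
ITGA8 promoter: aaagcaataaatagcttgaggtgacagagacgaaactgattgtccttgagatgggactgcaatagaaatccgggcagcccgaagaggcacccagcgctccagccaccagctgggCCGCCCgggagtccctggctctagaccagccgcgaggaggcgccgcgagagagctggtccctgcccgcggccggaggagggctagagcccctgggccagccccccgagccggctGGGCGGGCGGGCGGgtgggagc
ITGB6 promoter: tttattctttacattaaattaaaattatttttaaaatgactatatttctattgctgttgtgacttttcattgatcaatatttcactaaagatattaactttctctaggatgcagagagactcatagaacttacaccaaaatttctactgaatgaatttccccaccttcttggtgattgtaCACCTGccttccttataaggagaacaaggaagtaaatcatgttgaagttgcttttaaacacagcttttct
The LAMA3 stretch held 2 AP-1 matches, of which 1 overlapped an E-box match, and 1 GC box, and AP-1 matches were found in 6.57% of 35116 RefSeq promoters of the same length. The LAMB3 stretch held 1 E-box and 1 GC box. The ITGA8 promoter held 4 GC box matches, some of them overlapping, and was 68% G and C, while the ITGB6 promoter held 1 E-box and no GC box and was 30% G and C. GC boxes were found in 42.6% and E-boxes in 17.5% of the RefSeq promoters. The members had 33 RefSeq promoters, with several for some members and none for others. AP-1 matches were found in 2 of these 33 promoters (6.06%).

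Against WT, the SETD2 knockout clones differed at 19 of 38 genes: 12 had more bases under peaks and 7 had fewer (limma, Benjamini-Hochberg adjusted p under 0.05 over 16902 genes; mean of KO1 and KO2 against WT). Of all genes tested, 27.4% were called, 14.6% higher and 12.8% lower, and of the 5320 genes with levels in the middle range of the members (2524 to 5588 bases), 24.5% were called. The genes with more bases were ITGA8, ITGA11, ITGAD, ITGA9, LAMA2, LAMA4, ITGB5, LAMB1, ITGAE, ITGA4, LAMA1 and LAMC1, in the order of the difference. Those with fewer were LAMC3, ITGB2, ITGB6, ITGA6, LAMA5, ITGB4 and ITGA2B. The median difference of the 38 genes was 0.05 on the log2(bases + 250) scale, on which changes of low genes are understated, against -0.01 for all genes. When each library was divided by the length under all its peaks, 25 genes were called, 12 higher and 13 lower, while the median of all genes moved to -0.11. Shares of all genes called with this scaling are not given here or below, so the scaled counts describe the members only. An exact permutation test of 3 against 6 libraries cannot go below p = 0.0238, which 17 members and 3995 of all genes reached, and after adjustment (0.101 at least) it called none.

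**Figure D2:**
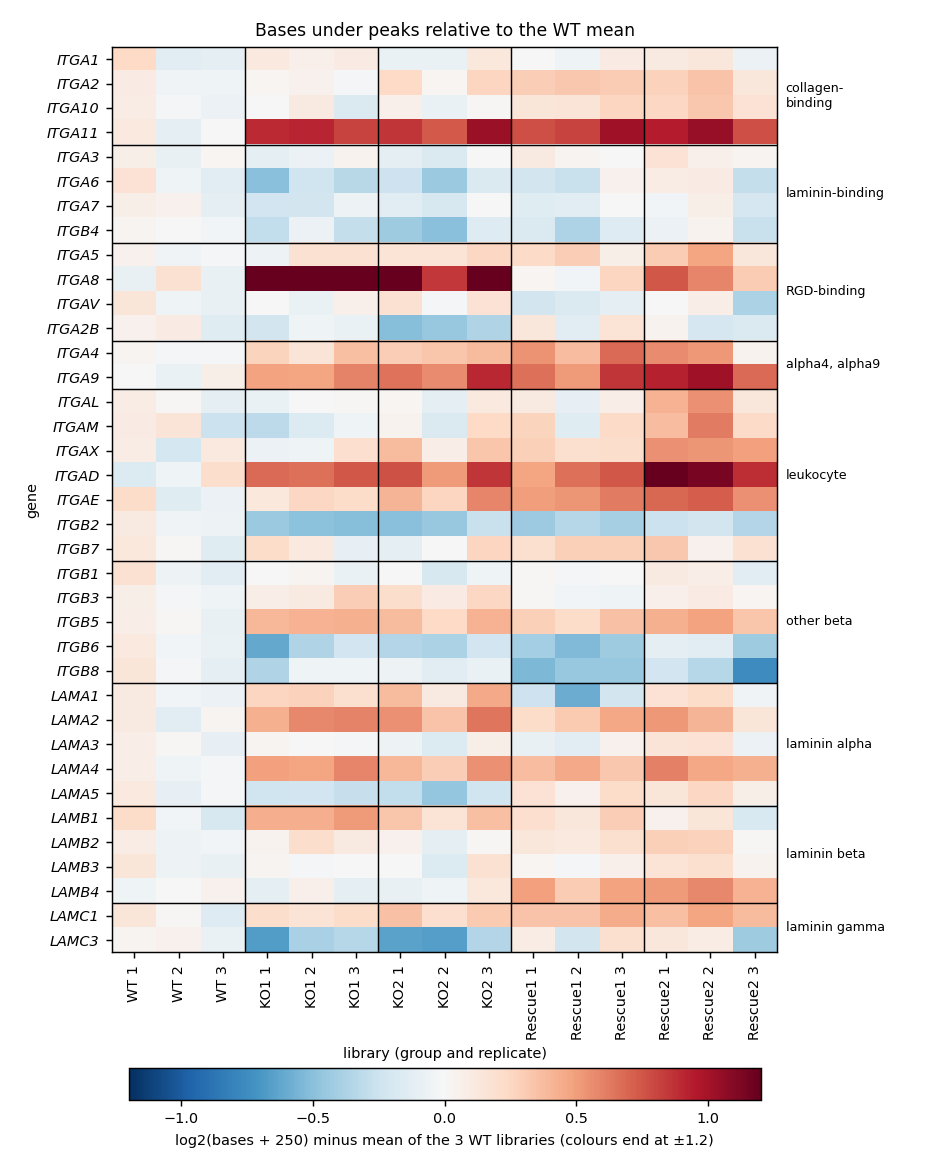
Bases under peaks of 37 of the 38 genes in each of the 15 libraries, as log2(bases + 250) minus the mean of the 3 WT libraries, grouped by role; red is more and blue is fewer bases than in WT. ITGA8 and ITGA11 are red in all 6 KO libraries, and ITGA11, ITGA9 and ITGAD stay red in the 6 rescue libraries.

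By clone, with the WT libraries shared by both comparisons, 14 genes differed in KO1 (8 higher, 6 lower; 23.2% of all genes were called, 11.8% higher and 11.4% lower) and 18 in KO2 (12 higher, 6 lower; 22.1% of all genes, 12.9% higher and 9.22% lower). ITGA8 passed the filter only through its KO libraries, and without it the counts were 13 in KO1 and 17 in KO2. After scaling by peak length the split was 8 higher and 10 lower in KO1 and 12 higher and 14 lower in KO2.

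**Figure D3:**
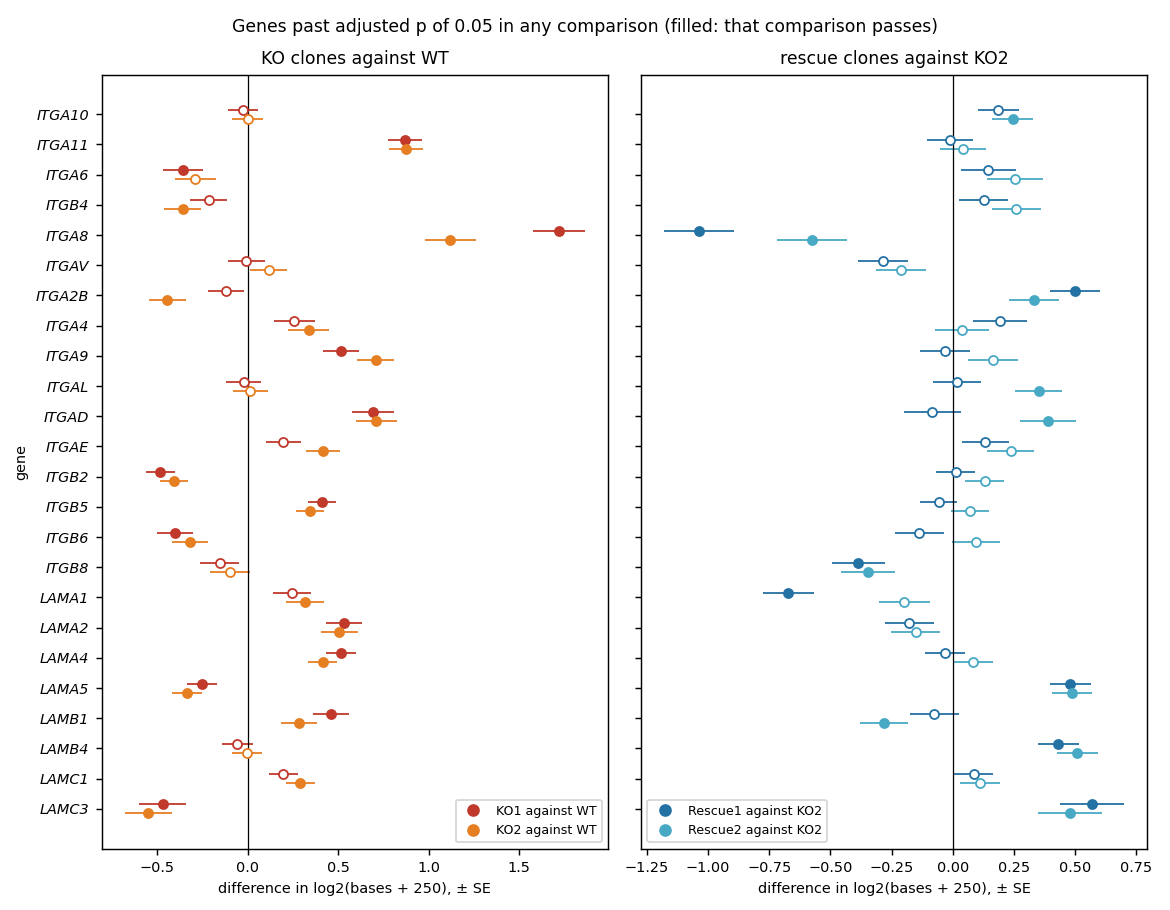
Difference in log2(bases + 250), with its standard error, for 24 of the 25 genes past the threshold in any comparison; the left panel gives KO1 and KO2 against WT and the right panel Rescue1 and Rescue2 against KO2, and filled points passed an adjusted p of 0.05 in limma. ITGA8 has the largest differences in both panels, with opposite signs.

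Among the RGD-binding integrins, ITGA8 had the largest difference of all members. ITGA8, known for its part in kidney development, had 290, 401 and 290 bases under peaks in WT, 1497, 1687 and 1764 in KO1 and 1132, 785 and 1114 in KO2. It had 335, 311 and 436 bases in Rescue1 and 714, 611 and 459 in Rescue2. All 6 KO libraries lay above all WT and all rescue libraries, Rescue1 overlapped WT, and Rescue2 lay between WT and KO2. The log2 difference was 1.42 ± 0.12 (SE) in KO relative to WT and -0.81 ± 0.12 in the rescue clones relative to KO2. With a mean of 427 bases over its 9 WT and rescue libraries, ITGA8 passed the filter of 500 bases only through its KO libraries, so these differences are a description; without it 18 genes were called in KO against WT and 8 in rescue against KO2. The other RGD-binding subunits moved less. ITGA2B, the alpha subunit of the platelet fibrinogen receptor, had 1637 ± 167 bases in WT, 1485 ± 109 in KO1, 1135 ± 73.4 in KO2, 1716 ± 221 in Rescue1 and 1496 ± 162 in Rescue2 (SD, n = 3 each), with a log2 difference of -0.28 ± 0.09 in KO (adjusted p = 0.019) and 0.42 ± 0.09 in rescue (adjusted p = 0.00141). KO1 alone was not called against WT (-0.12, adjusted p = 0.457). Its KO call was lost without WT replicate 1 (adjusted p = 0.0722) or WT replicate 2 (0.113). ITGAV, the alpha subunit shared by several RGD receptors, had 2521 ± 246 bases in WT, 2501 ± 137 in KO1, 2756 ± 226 in KO2, 2210 ± 90.3 in Rescue1 and 2362 ± 423 in Rescue2. It was called in rescue against KO2 (-0.25 ± 0.09, adjusted p = 0.0467) but in neither rescue clone alone (0.0652 and 0.139). ITGA5, the alpha subunit of the fibronectin receptor, passed in no comparison.

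Of the 4 collagen-binding integrins, ITGA11 was the 1 called in KO. ITGA11, a receptor of fibrillar collagen best known from fibroblasts, had 4178, 3494 and 3823 bases in WT, 7306, 7409 and 6876 in KO1, 7145, 6551 and 8081 in KO2, 6711, 6887 and 8012 in Rescue1 and 7553, 8165 and 6707 in Rescue2. The 12 KO and rescue libraries overlapped each other and lay above the 3 WT libraries without overlap. The log2 difference was 0.87 ± 0.08 for KO against WT (adjusted p = 1.19e-08), and rescue against KO2 was not called. ITGA10, a receptor of cartilage collagen, had 2630 ± 164 bases in WT and 2630 ± 138 in KO2, against 3028 ± 148 in Rescue1 and 3166 ± 169 in Rescue2 (SD, n = 3 each), with a log2 difference of 0.22 ± 0.07 for rescue against KO2 (adjusted p = 0.0361); Rescue1 alone was not called (0.156). ITGA1 and ITGA2, the more widely expressed collagen receptor subunits, passed in no comparison.

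ITGA4 and ITGA9, closely related subunits that bind fibronectin, VCAM1 or osteopontin, were called higher for the mean of both KO clones. ITGA9 had 3819, 3575 and 4013 bases in WT, 5393, 5360 and 5879 in KO1 and 6125, 5740 and 7319 in KO2. It had 6163, 5517 and 7075 bases in Rescue1 and 7427, 7931 and 6231 in Rescue2, so that no KO or rescue library reached down to WT. The log2 difference was 0.61 ± 0.09 (adjusted p = 9.61e-06) in KO against WT. ITGA4 had 1273 ± 34.7 bases in WT, 1576 ± 129 in KO1, which alone was not called (adjusted p = 0.102), and 1675 ± 53.9 in KO2, a log2 difference of 0.30 ± 0.10 in KO (adjusted p = 0.024) that missed the threshold with the shortened lists of 150000 peaks (0.563), without the flanks (0.0787), or without KO1 replicate 3 (0.0545), WT replicate 2 (0.0815) or WT replicate 3 (0.0727).

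Of the 4 laminin-binding integrin genes, 2 were called in KO, both lower. ITGB4, the beta subunit of hemidesmosomes, had 2742 ± 74 bases in WT, 2334 ± 235 in KO1, which alone was not called (adjusted p = 0.134), and 2096 ± 303 in KO2, a log2 difference of -0.29 ± 0.09 in KO against WT (adjusted p = 0.0159). ITGA6, its alpha partner, had 4771 ± 557 bases in WT, 3665 ± 356 in KO1 and 3858 ± 382 in KO2, which alone was not called (adjusted p = 0.0706), a difference of -0.32 ± 0.10 (adjusted p = 0.0155). Neither passed in rescue against KO2. Both calls were lost in some alternatives. That of ITGA6 was lost without WT replicate 1 (adjusted p = 0.125) or without the flanks (0.0624). That of ITGB4 was lost without WT replicate 1 (0.0574) or WT replicate 2 (0.0517). ITGA3 and ITGA7, the remaining alpha subunits of laminin receptors, passed in no comparison.

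Among the other beta subunits, ITGB5 and ITGB6, which both pair with alpha V, were called in opposite directions. ITGB5, the beta subunit of a vitronectin receptor, had 8341, 7994 and 7406 bases in WT, 10482, 10650 and 10680 in KO1 and 10353, 9388 and 10622 in KO2. It had 9695, 9273 and 10160 bases in Rescue1 and 10691, 11162 and 10037 in Rescue2, all above the WT libraries. The log2 difference in KO was 0.38 ± 0.07 (adjusted p = 0.000114). ITGB6 had 4966 ± 376 bases in WT, 3717 ± 521 in KO1 and 3929 ± 229 in KO2, a difference of -0.36 ± 0.09 (adjusted p = 0.00258), and 3552 ± 175 in Rescue1 and 4235 ± 528 in Rescue2, which were not called against KO2. ITGB8, another partner of alpha V, was not called in KO and had 3958 ± 114 bases in KO2, 2971 ± 104 in Rescue1 and 3097 ± 608 in Rescue2, a difference of -0.37 ± 0.10 in rescue against KO2 (adjusted p = 0.00761). ITGB1, the beta subunit of most matrix receptors, and ITGB3 passed in no comparison.

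**Figure D4:**
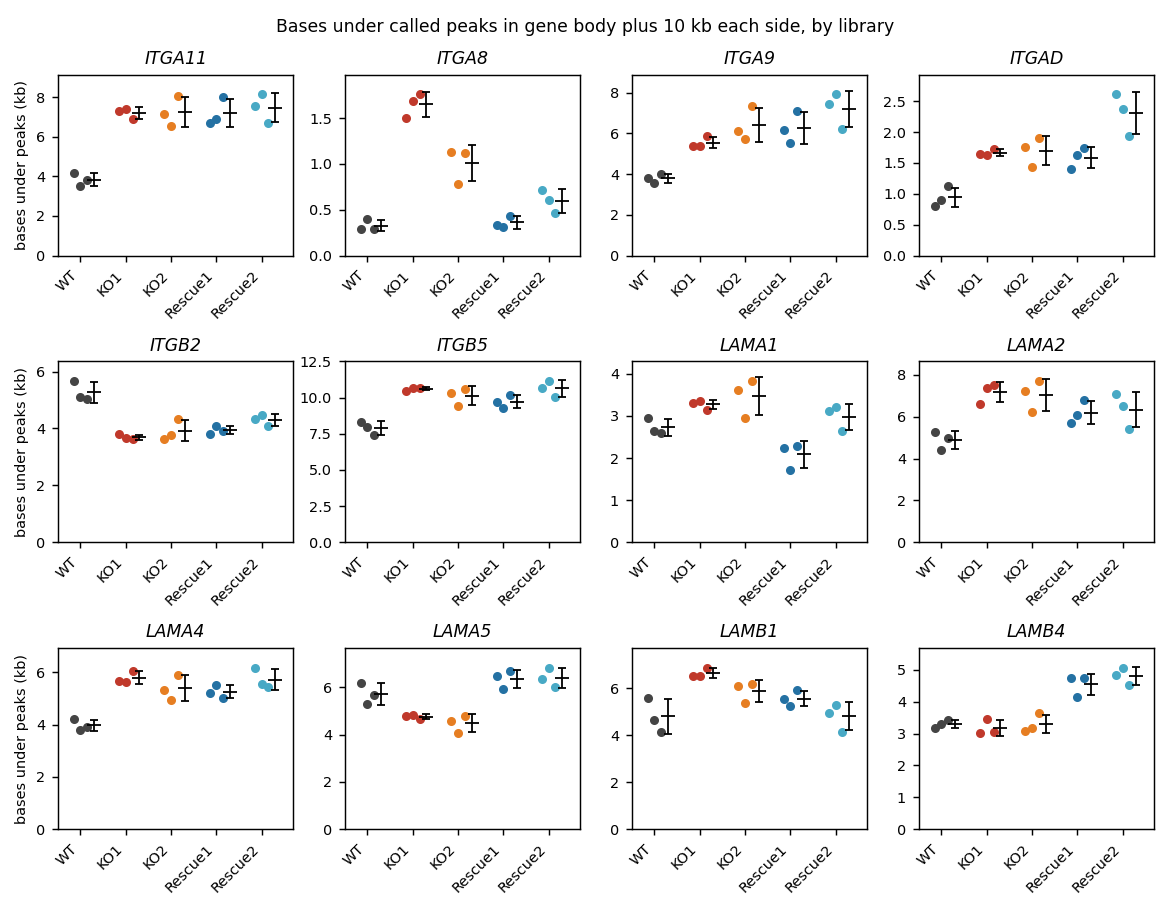
Bases under called peaks, in kb, in each library for the 12 genes with the smallest adjusted p in any comparison; points are libraries and the bar beside them is the mean with its SD (n = 3). In ITGA11, ITGA9, ITGAD, ITGB5, LAMA2 and LAMA4 the KO and rescue libraries all sit above WT, whereas in LAMA5 the KO libraries sit below WT and rescue.

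Windows of the leukocyte integrins also held peaks in these epithelial cells, and of these 7 genes 2 were called higher and 1 lower in KO. The value describes accessibility in the window and not expression. No start-site peak was found in any library for 5 of 7 leukocyte markers, while CD14 had one in all 15. ITGAD, an alpha subunit of macrophages, had 810, 896 and 1118 bases in WT, 1646, 1621 and 1732 in KO1 and 1765, 1435 and 1901 in KO2. It had 1395, 1625 and 1742 bases in Rescue1 and 2617, 2367 and 1937 in Rescue2, again with no overlap with WT, and a log2 difference of 0.70 ± 0.10 in KO (adjusted p = 7.72e-06). ITGB2, the beta subunit of all leukocyte integrins of this kind, had 5675, 5106 and 5018 bases in WT, 3797, 3666 and 3626 in KO1 and 3648, 3769 and 4332 in KO2, a difference of -0.44 ± 0.07 (adjusted p = 2.55e-05). It stayed low in rescue, with 3822, 4082 and 3923 bases in Rescue1 and 4349, 4488 and 4071 in Rescue2. For ITGB2 every KO and rescue library lay below every WT library. ITGAE, the alpha subunit with which lymphocytes bind E-cadherin, had 5316 ± 762 bases in WT, 6100 ± 280 in KO1, which alone was not called (adjusted p = 0.146), and 7161 ± 836 in KO2, a difference of 0.31 ± 0.08 in KO (adjusted p = 0.00688) that was lost without the flanks (0.0877) or without WT replicate 2 (0.0777). ITGAL passed only in Rescue2 against KO2, and ITGAM, ITGAX and ITGB7 in no comparison.

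Of the 5 laminin alpha chains, 3 were called higher and 1 lower in KO. LAMA2 had 5251, 4397 and 4977 bases in WT, 6612, 7382 and 7494 in KO1, 7203, 6218 and 7711 in KO2, 5692, 6086 and 6799 in Rescue1 and 7060, 6514 and 5414 in Rescue2. LAMA4, the alpha chain of vessel and mesenchymal laminins, had 4199, 3810 and 3904 bases in WT, 5677, 5613 and 6065 in KO1, 5320, 4939 and 5907 in KO2, 5212, 5530 and 5032 in Rescue1 and 6175, 5561 and 5420 in Rescue2. For both genes all KO and rescue libraries lay above WT. The log2 differences in KO were 0.52 ± 0.09 for LAMA2 (adjusted p = 6.85e-05) and 0.47 ± 0.07 for LAMA4 (adjusted p = 1.76e-05).

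LAMA5, the alpha chain of the mature tubular basement membrane, was lower in KO and higher again in rescue. It had 6201, 5309 and 5658 bases in WT, 4789, 4840 and 4660 in KO1 and 4597, 4073 and 4807 in KO2. It had 6465, 5943 and 6682 bases in Rescue1 and 6335, 6834 and 6027 in Rescue2. The KO libraries lay below every other library, and the rescue libraries overlapped the upper part of WT. The log2 difference was -0.29 ± 0.07 in KO against WT (adjusted p = 0.00328) and 0.49 ± 0.07 in rescue against KO2 (adjusted p = 2.42e-05).

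LAMA1 had 2944, 2646 and 2585 bases in WT, 3310, 3359 and 3151 in KO1 and 3616, 2959 and 3832 in KO2. It had 2245, 1718 and 2295 bases in Rescue1 and 3108, 3210 and 2632 in Rescue2, so Rescue1 lay below every other group and Rescue2 overlapped WT and KO2. The log2 difference was 0.28 ± 0.09 in KO against WT (adjusted p = 0.0227), which was lost without WT replicate 2 (0.0862) or WT replicate 3 (0.105), and -0.44 ± 0.09 in rescue against KO2 (adjusted p = 0.00117). By clone, KO1 was not called against WT (0.0969), nor Rescue2 against KO2 (0.178). LAMA3 was not called in any comparison on its whole window, where it had 12465 ± 791 bases in WT and 12509 ± 193 in KO1 (SD, n = 3 each), although its internal start differed as described above.

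Among the beta and gamma chains, LAMB1 and LAMC1, which with an alpha chain make the common laminin of basement membranes, were called higher for the mean of both KO clones. LAMB1 had 5582, 4658 and 4146 bases in WT, 6531, 6533 and 6872 in KO1, 6080, 5350 and 6188 in KO2, 5522, 5248 and 5904 in Rescue1 and 4959, 5303 and 4152 in Rescue2. KO1 lay above every other group, while KO2 overlapped WT in 1 library (5350 against 5582 bases). The log2 difference in KO was 0.37 ± 0.09 (adjusted p = 0.00192). LAMC1 had 7153 ± 772 bases in WT, 8210 ± 184 in KO1, which alone was not called (adjusted p = 0.0847), and 8788 ± 502 in KO2, a difference of 0.24 ± 0.07 in KO (adjusted p = 0.0111) that was lost without WT replicate 3 (0.135).

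LAMB4, a beta chain of little known function that lies next to LAMB1, had 3172, 3311 and 3435 bases in WT, 3028, 3465 and 3033 in KO1 and 3093, 3182 and 3632 in KO2. It had 4746, 4146 and 4725 bases in Rescue1 and 4829, 5064 and 4505 in Rescue2, all above the 9 libraries of the other groups. The log2 difference was 0.47 ± 0.07 in rescue against KO2 (adjusted p = 4.79e-05), and KO against WT was not called. LAMC3, a gamma chain outside the common laminin, had 3206 ± 172 bases in WT, 2259 ± 293 in KO1, 2124 ± 293 in KO2, 3282 ± 503 in Rescue1 and 3093 ± 678 in Rescue2. Its differences of -0.51 ± 0.11 in KO (adjusted p = 0.00143) and 0.52 ± 0.11 in rescue (adjusted p = 0.00168) rested on the flanks, where part of AIF1L lies: on the gene body alone they were -0.26 (adjusted p = 0.163) and 0.27 (adjusted p = 0.171). LAMB3 was not called in any comparison on its whole window. LAMB2 passed in no comparison.

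Rescue against KO2 asks which of these genes differ when SETD2 is expressed again. Against KO2, 9 of 38 genes differed in the rescue clones, 5 higher (LAMC3, LAMA5, LAMB4, ITGA2B and ITGA10) and 4 lower (ITGA8, LAMA1, ITGB8 and ITGAV). Of all genes tested 21.3% were called, 16.6% higher and 4.68% lower, and of the genes with levels in the middle range of the members 16.7%. The median of the 38 genes was 0.08, against 0.09 for all genes. Without ITGA8, which passed the filter only through its KO libraries, 8 genes were called for the rescue clones together, 6 for Rescue1 and 9 for Rescue2. By clone, with KO2 shared by both comparisons, 7 genes differed in Rescue1 (4 higher, 3 lower; 13.8% of all genes, 8.45% higher and 5.35% lower) and 10 in Rescue2 (7 higher, 3 lower; 20.8% of all genes, 18% higher and 2.72% lower), where scaling by peak length gave 6 higher and 7 lower. Without Rescue2 replicate 3, 14 genes were called in rescue against KO2 in place of 9, and 16 in Rescue2 against KO2 in place of 10. Shares of all genes called without this library are not given here, so these counts describe the members only. With the exact permutation test left aside, the calls of ITGAV and ITGA10 were the least stable of the 9 in rescue against KO2. That of ITGAV was lost in 17 alternatives and that of ITGA10 in 10. Among these were no flanks (adjusted p = 0.0842 and 0.0944), 150000 peaks per library (0.0761 and 0.0612) and a -log10 q of at least 5 (0.152 and 0.0616). Leaving out 1 library gave up to 0.192 for ITGA10 (without KO2 replicate 2) and 0.19 for ITGAV (without KO2 replicate 1). In Rescue2 against KO2, the call of LAMB1 was lost in 14 alternatives and that of ITGA10 in 12. Against the mean of both KO clones in place of KO2, 17 genes were called in rescue, 11 higher and 6 lower. The share of all genes called in this setting is not given here, so this count describes the members only.

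KO against WT and rescue against KO2 share the KO2 libraries, so their signs are not independent. KO1 against WT and rescue against KO2 share no library, and 3 genes were called in both: ITGA8, LAMA5 and LAMC3, which made up 21.4% of the 14 called in KO1 and 33.3% of the 9 called in rescue. Over all genes tested 1630 were called in both, 41.6% of the KO1 list and 45.4% of the rescue list, and 92.4% of these had opposite signs, so neither the overlap nor the signs set these genes apart. The differences of the 3 in KO1 and in rescue were 1.72 ± 0.14 and -0.81 ± 0.12 for ITGA8, -0.25 ± 0.08 and 0.49 ± 0.07 for LAMA5, and -0.47 ± 0.13 and 0.52 ± 0.11 for LAMC3. Those of ITGA8 are a description, since it passed the filter only through its KO libraries. The LAMA5 call in KO1 was lost without WT replicate 1 (adjusted p = 0.119), WT replicate 3 (0.063) or any 1 of the KO1 libraries (0.0641 to 0.0985), and that of LAMC3 without KO1 replicate 1 (0.0754).

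Clones of the same kind differed at few members. Between KO1 and KO2, ITGA8 was higher in KO1 by 0.60 ± 0.14 (adjusted p = 0.0186), 1 of 38 genes against 2.44% of all genes, 0.444% higher in KO1. As ITGA8 passed the filter only through its KO libraries, this difference is a description, and without ITGA8 the count was 0. Between Rescue1 and Rescue2, LAMA1 (-0.47 ± 0.10, adjusted p = 0.0112) and ITGAD (-0.47 ± 0.12, adjusted p = 0.0235) were lower in Rescue1, 2 of 38 genes against 3.14% of all genes, of which 0.148% were higher and 2.99% lower in Rescue1. Each of the 3 calls was lost without certain libraries: ITGA8 without KO1 replicate 2 (0.087), KO1 replicate 3 (0.0955) or KO2 replicate 2 (0.117), and LAMA1 without Rescue1 replicate 2 (0.125), Rescue2 replicate 1 (0.0717) or Rescue2 replicate 2 (0.0909). ITGAD lost it without Rescue1 replicate 1 (0.151), Rescue1 replicate 2 (0.075), Rescue2 replicate 1 (0.184) or Rescue2 replicate 2 (0.12). Over the 8 comparisons 25 genes were called at least once and 13 were not: ITGA1, ITGA2, ITGA3, ITGA5, ITGA7, ITGAM, ITGAX, ITGB1, ITGB3, ITGB7, LAMA3, LAMB2 and LAMB3.

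The windows held 815 of the 183638 consensus regions in windows of all genes, where a consensus region is a run of merged peaks found in at least 2 libraries. Of these, 308 (37.8%) had a peak in all 15 libraries, against 38.3% for all genes. A peak in all 6 KO and no WT library was found for 34 regions, against 3.99% of regions in all windows, and a peak in all 3 WT and no KO library for 22 regions, against 2.48%; for the members these shares were 4.17% and 2.70%, close to the background. Most of the 34 regions gained in KO were intronic (76.5%) and 2.94% lay at a start site, which was close to the 451 other regions that varied between libraries (68.3% and 3.99%); of the 308 regions found in every library 12.3% lay at a start site. Of the 34 gained regions, 20 (58.8%) had a peak in all 6 rescue libraries and 2 (5.9%) in none, against 47.2% and 14.1% of the 7320 gained regions in all windows. Of the 22 lost regions, 14 (63.6%) had no peak in any rescue library and 2 (9.1%) had a peak in all 6, against 40.2% and 14.1% of the 4548 lost regions in all windows. As shares of all 183638 regions, these 4 patterns made up 1.88%, 0.563%, 0.995% and 0.35%. No test was run on these shares. Strict all-or-none counts depend on calling at the threshold, and with a majority in place of all libraries they were 99 gained and 70 lost. Shares over all windows under the majority rule are not given here, so these 2 counts describe the members only.

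**Figure D5:**
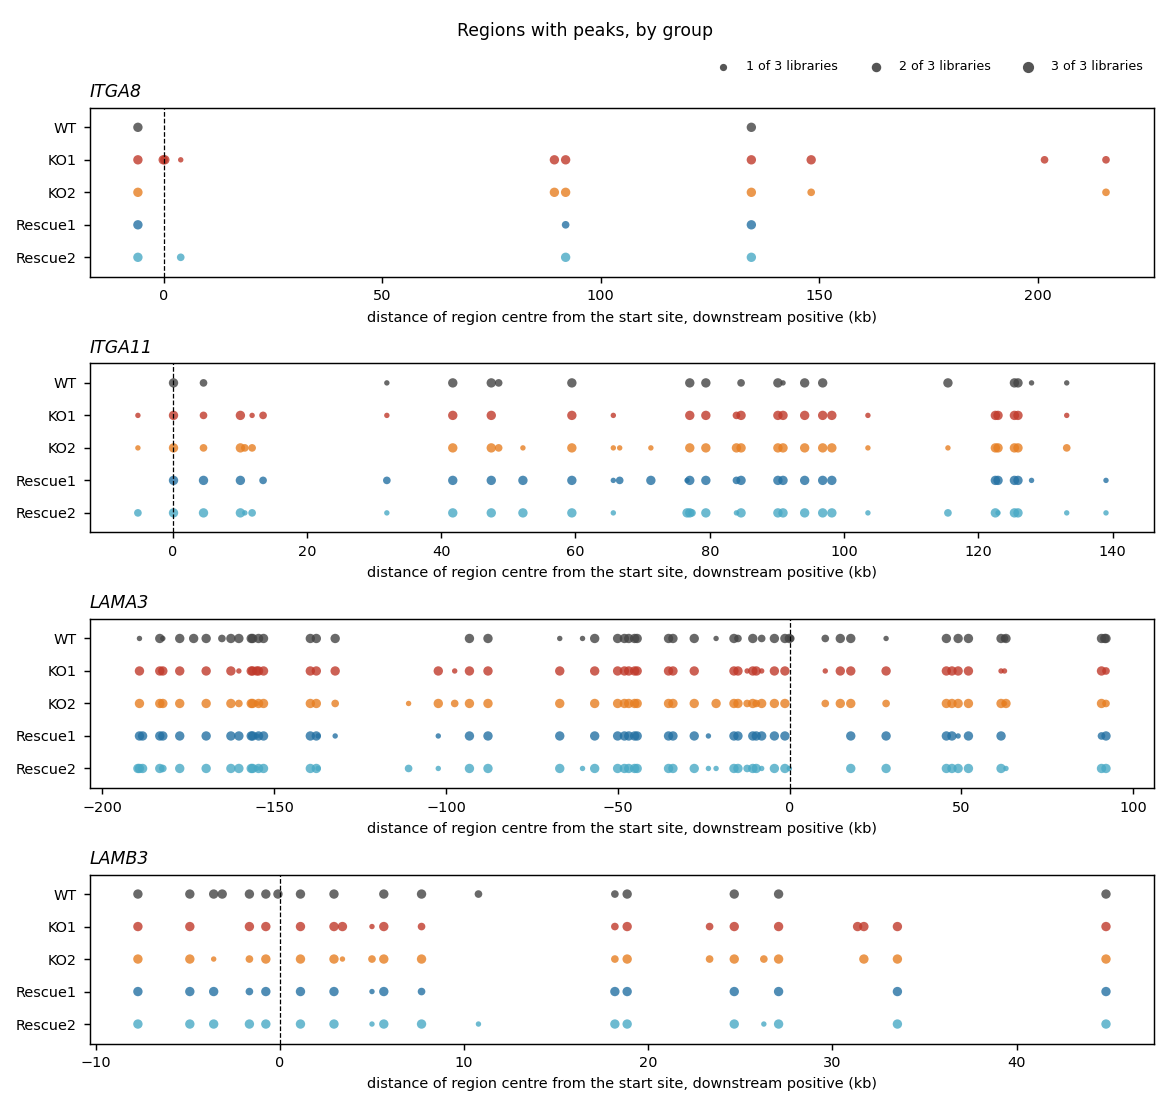
Consensus regions in the windows of ITGA8, ITGA11, LAMA3 and LAMB3, by the distance of their centre from a start site in kb (dashed line; the internal start for LAMA3 and the upstream start for LAMB3) and by group; the size of a point is the number of libraries with a peak there. In ITGA8 the regions with centres 89411 and 91985 bp downstream have points in KO1 and KO2 and none in WT, and in LAMA3 only WT and Rescue2 have a point at the dashed line.

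The 2 regions gained in KO and absent from rescue lay in introns of ITGA8 (chr10:15630387-15630636, hg38) and LAMB3 (chr1:209620618-209620817). The ITGA8 region lay 89411 bp from the gene's start, and its 6 KO peaks were of middle rank, at the percentiles 46.5 to 63.6 of their lists. A neighbouring ITGA8 region (chr10:15627760-15628115) was also gained in KO but had peaks in 2 Rescue1 and 3 Rescue2 libraries. The 2 regions lost in KO and present again in all rescue libraries lay in an intron of ITGA6 (chr2:172438154-172438325) and 2438 bp upstream of LAMA5 (chr20:62369651-62369851). Peaks of the LAMA5 region were weak in every library that had one, with a median percentile of 20.6, and those of the ITGA6 region ranged from 12.2 to 59.3.

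ITGA11 had 4 regions with peaks in all 6 KO and no WT library, 3 of them with a peak in all rescue libraries too; that nearest its start was intronic (chr15:68421866-68422267, 10096 bp from the start). ITGA9 had 4 gained regions and ITGB5 had 4, all intronic. LAMA4 had 4 gained regions and 1 lost region. In ITGB4, 2 intronic regions near the start (chr17:75722127-75722306, 719 bp from a start, and chr17:75723140-75723378, 1761 bp) had peaks in all 3 WT libraries and in none of the other 12. In LAMB4, an intronic region (chr7:108062308-108062576) had peaks in all 6 rescue libraries and in none of the other 9.

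For 6 of these regions, 200-base stretches around the median position of the peak summits are given because they carry the patterns just described. All are read from hg38 on the plus strand, and capitals mark matches to the same 7 motifs on either strand.
ITGA8 intron, gained in KO and absent from rescue (chr10:15630404-15630603): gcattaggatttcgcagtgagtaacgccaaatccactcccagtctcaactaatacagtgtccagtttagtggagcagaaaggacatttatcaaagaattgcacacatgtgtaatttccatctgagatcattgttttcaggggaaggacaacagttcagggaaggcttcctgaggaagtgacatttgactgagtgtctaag
ITGA6 intron, lost in KO and present in rescue (chr2:172438146-172438345): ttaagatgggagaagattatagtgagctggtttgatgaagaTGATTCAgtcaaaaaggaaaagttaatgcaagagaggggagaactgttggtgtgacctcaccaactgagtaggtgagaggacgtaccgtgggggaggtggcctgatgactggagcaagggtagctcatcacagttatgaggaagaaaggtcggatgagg
LAMA5 upstream, lost in KO and present in rescue (chr20:62369652-62369851): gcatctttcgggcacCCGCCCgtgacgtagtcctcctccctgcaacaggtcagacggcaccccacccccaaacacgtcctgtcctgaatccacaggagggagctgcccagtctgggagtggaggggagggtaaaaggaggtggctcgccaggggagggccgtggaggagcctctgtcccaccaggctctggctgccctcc
ITGA11 intron, gained in KO and kept in rescue (chr15:68421863-68422062): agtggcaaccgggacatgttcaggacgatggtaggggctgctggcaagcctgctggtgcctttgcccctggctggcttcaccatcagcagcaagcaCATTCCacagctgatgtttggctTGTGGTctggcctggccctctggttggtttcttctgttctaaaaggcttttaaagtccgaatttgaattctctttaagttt
ITGB4 intron, lost in KO and absent from rescue (chr17:75722130-75722329): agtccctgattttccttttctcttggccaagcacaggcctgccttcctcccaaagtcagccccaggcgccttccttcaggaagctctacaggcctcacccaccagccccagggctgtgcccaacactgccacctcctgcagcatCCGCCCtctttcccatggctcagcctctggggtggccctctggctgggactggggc
LAMB4 intron, present in rescue alone (chr7:108062359-108062558): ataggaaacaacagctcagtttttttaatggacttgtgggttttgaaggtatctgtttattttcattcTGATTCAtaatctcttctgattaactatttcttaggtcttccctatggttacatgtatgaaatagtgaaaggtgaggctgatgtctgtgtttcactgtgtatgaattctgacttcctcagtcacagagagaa
The ITGA6 and LAMB4 stretches each held 1 AP-1 match, the ITGA11 stretch held a TEAD and a RUNX match, the LAMA5 and ITGB4 stretches each held 1 GC box, and the ITGA8 stretch held none of the 7 motifs. The shares that follow are from region centres and not from summits, so they are placed differently from the stretches shown. In 200-base stretches at the centres of all 285511 autosomal consensus regions, AP-1 matches were found in 27.4%, TEAD in 15.4%, RUNX in 20.6% and GC boxes in 8.57%. Over the 815 regions of the members the AP-1 share was 28.3%, over the 34 gained regions 26.5% (9 regions) and over the 22 lost regions 4 regions.

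The same test was read for genes whose proteins work with integrins and laminins. Of 32 such genes (adaptors, filament linkers and matrix partners), 8 were called in KO against WT, 4 higher and 4 lower, and 3 in rescue against KO2, 2 higher and 1 lower, beside the 27.4% and 21.3% of all genes given above. Higher in KO were NID1, which links laminin to collagen IV (0.41 ± 0.07, adjusted p = 0.000124), PARVA, an actin-binding adaptor (0.40 ± 0.07, adjusted p = 0.000165), the kinase gene SRC (0.29 ± 0.07, adjusted p = 0.00197) and LIMS1, an adaptor of the integrin-linked kinase (0.23 ± 0.08, adjusted p = 0.0341). Lower were FREM2, a basement membrane protein (-0.33 ± 0.09, adjusted p = 0.00929), VTN, the integrin ligand vitronectin (-0.32 ± 0.11, adjusted p = 0.0329), CD151, a tetraspanin partner of laminin-binding integrins (-0.28 ± 0.07, adjusted p = 0.00598), and DAG1, the laminin receptor dystroglycan (-0.26 ± 0.06, adjusted p = 0.00223). In rescue against KO2, VTN (0.31 ± 0.11) and DAG1 (0.22 ± 0.06) were higher and FREM2 was lower than in KO2 (-0.50 ± 0.09).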

How the data were processed

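ATAC-seq libraries of 15 RPTEC samples were taken as the authors deposited them, as 1 MACS2 peak list per library on hg38. The submitters' processing notes name BWA 0.7.17, MACS2 2.2.7.1 and DiffBind 2.14.0; duplicate removal, controls and blacklists are not given in the sources used here. The deposited columns were the interval, a score, a fold enrichment (ratio), -log10 p, -log10 q and the summit. Because the lists hold no counts, a read-count test was not made.

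For each autosomal protein-coding gene of GENCODE 44, bases under peaks were summed over the gene body plus 10 kb on each side. Values as log2(bases + 250) were tested with limma 3.58.1 in R 4.3.3 (1 mean per group, empirical Bayes with a variance trend) for 16902 genes with a mean of at least 500 bases over 15 libraries. P-values were Benjamini-Hochberg adjusted over these genes and called under 0.05, in 8 comparisons. Consensus regions were merged peaks (1 bp or more shared) found in at least 2 libraries. Python 3.11.15, numpy 2.4.6, pandas 2.3.3 and matplotlib 3.10.9 were used.

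The genes, the partner and marker lists and the comparisons were chosen with earlier results of these data known. Values in every library are given for the 12 genes with the smallest adjusted p of the 25 called. Groups follow the labels. The alternatives were other pseudocounts (50 and 1000), no filter, no flanks, a -log10 q of at least 5, 150000 peaks per library, scaling to length under peaks, no variance trend, the replicate number as a block, and each library left out. Permutation tests were exact and two-sided. Results of 1 gene are not reported here.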

Additional observations from a re-analysis of the deposited data

Results flagged for a closer look

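For 3 genes, differences between clones of the same kind passed a test of the difference itself. ITGA8 had more bases under peaks in KO1 than in KO2, by 0.60 on the log2 scale (limma adjusted p = 0.0186), and its start had a peak in 3 of 3 KO1 and 0 of 3 KO2 libraries. It passed the filter of 500 bases only through its KO libraries, so its difference is a description. With no filter it was not called (limma adjusted p = 0.0544). ITGAD differed by -0.47 between Rescue1 and Rescue2 (adjusted p = 0.0235), and its start had a peak in 0 of 3 Rescue1 and 3 of 3 Rescue2 libraries. LAMA1 differed by -0.47 between Rescue1 and Rescue2 (adjusted p = 0.0112), with start-site peaks in 3 and 2 of 3 libraries. Each kind of clone had 2 lines, so a difference between SETD2 states of the clones and a difference between clones cannot be told apart.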

How the results depend on the processing

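With the exact permutation test left aside, 46 of 80 calls of a gene in a comparison kept their call and direction in every alternative. Another 34 lost the call in at least 1 of these alternatives, and 0 changed direction. Scaling to length under peaks gave 16 genes in rescue against KO2, 17 in Rescue1 against KO2, 4 in KO1 against KO2 and 7 in Rescue1 against Rescue2. Rescue against both KO clones gave 17 genes (11 higher, 6 lower). Shares of all genes called are not given here for these or for the other alternatives below, so their counts describe the members only. The exact permutation test called 0 genes in KO against WT and 0 in rescue against KO2, where its smallest adjusted p was 0.101 and 0.134 and its smallest p, 0.0238, was reached by 17 and 8 members. With no filter, 6 genes were called in Rescue2 against KO2, 0 in KO1 against KO2 and 0 in Rescue1 against Rescue2. KO1 against KO2 gave 0 genes with a pseudocount of 50, 0 without flanks, 0 with 150000 peaks and 2 with a -log10 q of at least 5, and Rescue1 against Rescue2 gave 1 without flanks and 0 with 150000 peaks.

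With a majority of libraries in place of all, 99 regions were gained, 70 lost, 37 gained and absent from rescue, and 19 lost and present in rescue. A -log10 q of at least 5 left 13 lost regions. With a 50% overlap, 1 region was gained and absent from rescue and 8 were lost and present in rescue, and with 150000 peaks 5 were gained and absent from rescue. Shares over all windows are not given for these or for the region counts below, so the counts describe the members only.

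Leaving out 1 library gave 14 to 20 genes in KO against WT, 11 to 15 in KO1, 12 to 19 in KO2, 7 to 14 in rescue against KO2, 6 to 9 in Rescue1, 4 to 16 in Rescue2, 0 to 1 between KO clones and 0 to 5 between rescue clones. Regions gained ranged from 34 to 41, lost from 22 to 31, gained and absent from rescue from 2 to 4, and lost and present in rescue from 2 to 3. Without Rescue2 replicate 3 the counts were 14 in rescue against KO2, 16 in Rescue2 against KO2 and 5 between rescue clones. Rescue2 against KO2 fell to 4 without KO2 replicate 2 or Rescue2 replicate 1, 5 without KO2 replicate 1 and 6 without Rescue2 replicate 2. KO2 against WT fell to 12 without KO2 replicate 1. The difference between KO clones was called for 0 genes without KO1 replicate 2, KO1 replicate 3 or KO2 replicate 2, and that between rescue clones for 0 without Rescue1 replicate 2, Rescue2 replicate 1 or Rescue2 replicate 2 and for 1 without Rescue1 replicate 1. The causes were not tested.

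With the replicate number as a block, the counts were 19 in KO against WT, 7 in rescue against KO2, 14 in KO1, 17 in KO2, 7 in Rescue1, 8 in Rescue2, 1 between KO clones and 2 between rescue clones. Same-numbered libraries did not deviate together (18 correlations from -0.18 to 0.05, 0 over 0.1), so the numbers were not taken as pairs. Read depth is unknown, and a region without a peak may lie just under the threshold.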
